A study of Mus musculus with 70 samples.

Results

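The step from the fifth to the sixth lung passage was examined in 6 T-LM P5 and 4 T-LM P6 sub-lines, all the samples labelled as lung metastases after tail vein injection at these 2 passages, among 70 arrays of the whole series. T-LM sub-lines are GFP-RENCA cells, a BALB/c mouse renal carcinoma line with wild-type Vhl that carries a lentiviral GFP reporter. The cells were injected into the tail vein of female wild-type BALB/c mice, 6 weeks old per the methods, recovered from the digested lungs, cultured for about 2 weeks until no GFP-negative cell was detected, and injected again. P5 and P6 share line, reporter, strain and route, and differ by 1 more round through the lung and culture. The parental cells kept in culture (P0, 2 samples) and T-LM P2, P3 and P4 (2, 3 and 4 samples) entered the same fit. KPT sub-lines, implanted under the kidney capsule and recovered from the kidney tumour, gave the same step at another site, with 5 samples at P5 and 5 at P6. Another 3 KPT P6 and 2 P0 arrays, labelled batch2, were left out of every fit. Several mice were used per passage, but the sources used here do not say which mice gave each sub-line, or which P5 sub-line gave rise to which P6 sub-line. P-values therefore measure the spread between these samples, which may be technical. The labels name the source as lung metastases and describe homogenisation with a tissue disruptor, whereas the methods describe purified cultured cells.

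RENCA is a tumour line of the renal cortex. Epithelial cells are held together by E-cadherin (Cdh1), claudins and keratins, and transcription factors of the Snail and Zeb families can silence these genes during epithelial-mesenchymal transition. In the lung the cells meet alveolar epithelium, whose type II cells make surfactant proteins, and resident and recruited macrophages, which secrete chemokines and metalloproteinases. Myeloid and stromal cells can be carried along when tumour cells are recovered from tissue. Immediate-early genes such as Fos and Jun are switched on within minutes by growth factor and stress signals and phosphatases of the Dusp family dampen the kinases that induce them.

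A level is the log2 signal of a gene's probe relative to the 75th percentile of commonly detected probes on the same array, so 0 is a bright probe and values near -8 lie at background. Of 15 renal epithelial marker genes, Krt8, Krt18 and Pax8 were well above background on all 10 arrays, while Cdh16, Pax2 and Lhx1 were below it on all 10. The share of probes well above background was 25.3% to 32.2% in P5 and 31.6% to 37.3% in P6. An index of library composition, the mean level of long mRNAs minus that of ribosomal protein mRNAs, averaged -7.79 ± 0.38 (SD, n = 6) in P5 and -6.95 ± 0.41 (SD, n = 4) in P6 (exact permutation test, 2-sided, p = 0.019, the smallest possible being 0.00476). The difference of 0.84 was 0.28 with quantile normalization (exact permutation p = 0.0857) and 0.2 with the deposited series values (exact permutation p = 0.138). P5 replicate 1 stood apart: the summed level of 15 fibroblast markers was 44 times the reference signal there, against 2.24 to 3.58 in the other P5 samples, and that of 30 macrophage markers was 7.83 against at most 4.97. All 10 arrays were scanned on the same day. P5 and P6 replicates 1 to 4 lay together on 4 slides, which gave 4 same-slide differences for each gene.

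**Figure D1:**
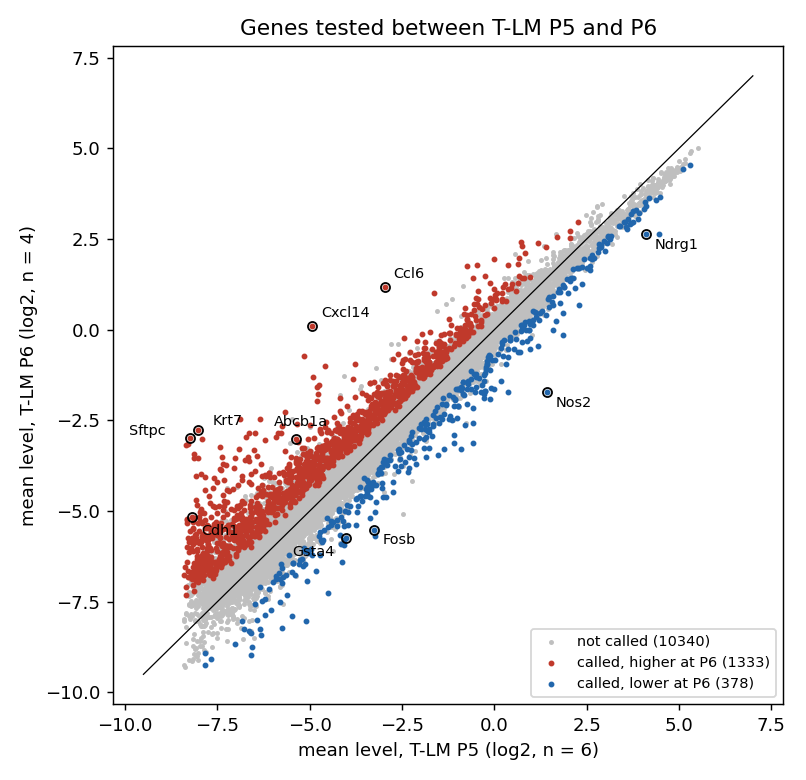
Mean level of each of 12051 genes in T-LM P5 (x axis, log2, n = 6) against T-LM P6 (y axis, log2, n = 4), with the line of equal level. Red points are the 1333 genes called higher at P6, blue points the 378 called lower and grey points those not called, and the steepest rises (Krt7, Sftpc) start from the background level at the left edge.

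Of 12051 genes tested, 1711 (14.2%) passed an adjusted p of 0.01 in limma, 1333 (11.1%) higher and 378 (3.14%) lower at P6. By at least 1 log2 unit, 800 of these were higher and 153 lower. The P5 and P6 samples of 1513 of the called genes did not overlap, and non-overlap held for 22.1% of all tested genes (16.1% higher and 5.97% lower at P6). The median change of all genes was 0.16, and each list below is read against that value. The direction of the balance rested on the scaling. At the probe level 2853 of 21384 probes passed (13.3%, 10.2% higher and 3.16% lower). Of these 76.3% were higher at P6, but with the 75th percentile taken over all probes 38.8% of 2839 calls were, with a median of all genes of -0.12. With slide as a fixed block 1113 probes passed, 814 higher and 299 lower. With only the P5 and P6 T-LM arrays 2492 passed. With these arrays and a block per replicate number, which is the slide for numbers 1 to 4, 18 passed. Of the 2853 called probes, 2711 changed in the same direction within all 4 slides, as did 40.3% of all tested probes and 40.9% of all tested genes. Groups of 20.4% of all tested probes did not overlap.

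Lung epithelial genes rose together. Of 14 markers on the array 10 were tested, and 7 of them were higher at P6 (70%, against 11.1% of all genes) and 0 lower, with a median change of 1.72, or 1.11 with values floored at the detection limit. The list's summed level was 0.775 to 0.971 (median 0.809) in P5 and 1.37 to 2.02 in P6, so the groups did not overlap, and all 4 P6 samples also exceeded P0 and T-LM P2 to P4, whose highest value was 1.29. Between 3 and 4 of the 14 genes were well above background on each P5 array, and 6 to 10 on each P6 array. Sftpa1, Nkx2-1 (the lung epithelial transcription factor), Scgb3a2 and Slc34a2 were below background on all 10 arrays. Sftpc and Sftpb were each above background on 1 T-LM P4 array and on no other array of P0 or T-LM P2 to P5. Both entered the test through P6 and could hardly be called lower. Fewer cells of a type and less RNA per cell cannot be told apart in such bulk samples.

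Sftpc, the surfactant protein made by alveolar type II cells, was at -9.08 to -7.42 (median -8.24) in P5, below background in all 6 samples. In P6 replicates 1 to 4 it was at -3.88, -1.11, -2.79 and -4.19. Replicate 2 was the highest, and the groups lay more than 3 log2 units apart. This was at least 8.41-fold higher (adjusted p = 3.72e-05, limma), where "at least" sets each dim sample no lower than the faintest detectable signal of its own array. Sftpd, a collectin that binds microbes in the airspace, was at -9.13 to -7.53 (median -8.38) in P5 and at -3.83, -2.62, -2.79 and -3.47 in P6, at least 7.39-fold higher (adjusted p = 3.22e-08), and its second probe was called too. Sftpb, needed for the surfactant film, was at -8.66 to -7.06 in P5. It was above background in 3 of 4 P6 samples, at -5.89, -3.5 and -4.54, but at -7.35 in replicate 4, within the P5 range (at least 1.67-fold, adjusted p = 0.00345, and 0.0247 with slide as a fixed block).

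The other lung markers that passed and the uncalled genes given for comparison throughout were chosen after their values were seen. Ager, of alveolar type I cells, was above background in 3 P6 samples and none of P5 (at least 1.36-fold). Scgb1a1, the club cell secretoglobin, changed by 1.8 (SE 0.33), and Lamp3, of type II cell lamellar bodies, by 0.96 (SE 0.15) with all 10 samples above background. Foxj1, the regulator of motile cilia, passed with 3 P6 samples above background, too dim for a bound. Markers of several lung cell types thus passed, though not each of them was above background in all 4 P6 samples. P6 replicate 4 had 6 of the 14 markers above background, against 9 or 10 on the other P6 arrays. The part of carried-over lung cells in these values was not tested. Abca3, the type II cell lipid transporter, was detected on all arrays and changed by 0.1 (SE 0.25, adjusted p = 0.802).

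**Figure D2:**
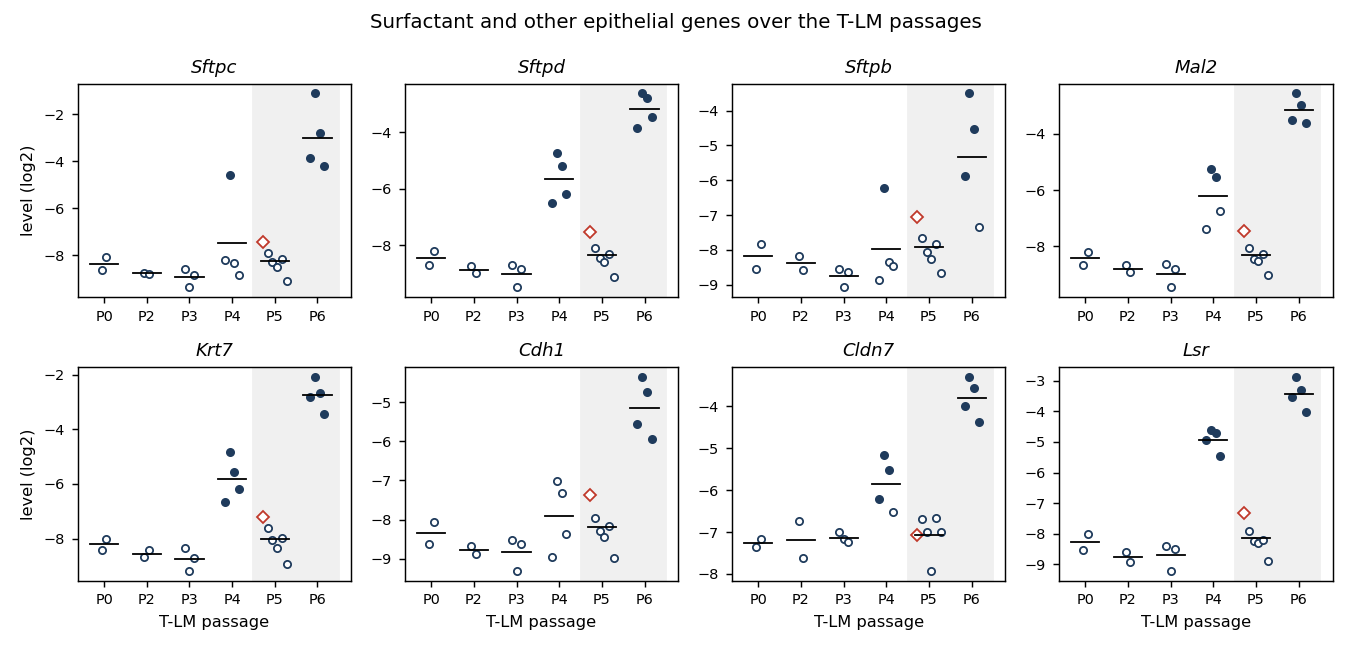
Level (y axis, log2) of 8 surfactant and other epithelial genes in each sample of P0 and T-LM P2 to P6 (x axis). Points are samples, open where the probe was not well above background, the red diamond is P5 replicate 1, black lines are group means, and the grey band marks P5 and P6. All P5 points are open in every panel, and the P6 points of Krt7 lie between -3.46 and -2.09.

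Genes of simple epithelia were among the largest rises. Krt7, a keratin of ducts and simple epithelia, was at -8.94 to -7.23 (median -8.02) in P5 and at -2.83, -2.09, -2.68 and -3.46 in P6. All P5 samples were at background and all P6 samples far above it, at least 9.83-fold higher (adjusted p = 2.99e-08), with same-slide differences of 4.4 to 5.53. Lsr, a component of tricellular junctions, was at -8.89 to -7.33 in P5 and at -3.52, -2.88, -3.31 and -4.01 in P6, at least 6.2-fold higher (adjusted p = 9.52e-09). Mal2 and Mal, carriers of apical membrane cargo, were at least 7.48-fold and 4.23-fold higher, and S100a14, a calcium-binding protein of epithelia, at least 5.76-fold. Cldn7, a tight junction claudin, was at -7.93 to -6.66 in P5 and at -4, -3.3, -3.57 and -4.38 in P6, at least 4.76-fold higher. Several of these genes were also above background at P4, with T-LM P4 means of -5.81 for Krt7, -4.93 for Lsr and -5.67 for Sftpd. Krt7, Lsr and Sftpd were below background in all P5 samples. The P5 arrays were mostly dimmer. Their 75th percentile signal was 128.4 to 354, against 313.7 to 544.3 at T-LM P4 and 314.6 to 590.2 at P6. The size of a fall from P4 to P5 therefore cannot be read from these values. The P5 arrays were mostly dimmer than those of P6 too. The part of array brightness in the P5 to P6 counts of samples or markers above background was not tested. The "at least" folds set each dim P5 sample no lower than its own array's faintest detectable signal. The remaining genes among the 15 largest rises included Ttll11, a tubulin glutamylase (at least 8.27-fold), Vsig2 (at least 4.08-fold) and Mab21l4 (at least 4-fold).

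Of the 20 tested genes of the epithelial-mesenchymal transition list, 5 were higher at P6 (25%, against 11.1% of all genes). In this list 0 were lower, against 3.14% of all genes. All 5 are epithelial, namely Cdh1, Epcam, Cldn7, Itgb6 and Esrp1. Cdh1 and Epcam were above background on no array of P0 or T-LM P2 to P5. They entered the test through P6 and could hardly be called lower. With slide as a fixed block 3 of the list were higher. Cdh1 was at -8.97 to -7.37 (median -8.22) in P5 and at -5.55, -4.36, -4.74 and -5.94 in P6, at least 1.89-fold higher (adjusted p = 3.04e-05). Itgb6, the epithelial integrin chain that activates TGF-beta, was at least 1.26-fold higher. Epcam passed (adjusted p = 0.00135) with only 2 of 4 P6 samples above background, and did not pass with slide as a fixed block (0.0218) or the floor (change 0.45, adjusted p = 0.0393). No mesenchymal gene of the list passed. Vimentin (Vim) changed by -0.61 (SE 0.17, adjusted p = 0.0137), and the repressors Zeb1, Zeb2 and Snai1 by 0.05, 0.21 and -0.77 (adjusted p = 0.9, 0.632 and 0.114). The median change of the list was 0.03, against 0.16 of all genes. Among the 12 tested renal epithelial markers Krt7, Cdh1 and Epcam were the 3 that passed (25%, against 11.1% of all genes higher). Krt8 and Krt18 changed by -0.29 and -0.14 (adjusted p = 0.346 and 0.568).

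The promoters of Krt7 and Epcam are shown because both were called and both hold the E-box letters CACCTG, to which Snail and Zeb repressors bind. They run from 250 bases before to 50 after the RefSeq start in GRCm38.p6, 5′ to 3′ on the gene's strand, with the E-box in capitals on either strand. The start of the box lies 44 bases before the start of Krt7 (chr15:101412153-101412452, plus strand), and 187 and 19 bases before that of Epcam (chr17:87635729-87636028, plus strand).
Krt7: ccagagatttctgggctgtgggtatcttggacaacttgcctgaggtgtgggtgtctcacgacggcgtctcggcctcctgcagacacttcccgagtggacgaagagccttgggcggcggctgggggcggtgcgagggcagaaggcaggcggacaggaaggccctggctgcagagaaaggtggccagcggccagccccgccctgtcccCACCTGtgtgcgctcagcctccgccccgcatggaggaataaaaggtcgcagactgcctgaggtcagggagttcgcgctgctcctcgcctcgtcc
Epcam: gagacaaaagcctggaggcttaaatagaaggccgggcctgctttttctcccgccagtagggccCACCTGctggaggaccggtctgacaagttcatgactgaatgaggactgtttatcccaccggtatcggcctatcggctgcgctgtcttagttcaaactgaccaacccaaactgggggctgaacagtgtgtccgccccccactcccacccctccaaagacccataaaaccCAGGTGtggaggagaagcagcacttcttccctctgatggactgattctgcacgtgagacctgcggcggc
Of all 32851 promoters of this length 20.2% hold CACCTG on either strand, and 22.6% of their 27025 genes have such a promoter. In the epithelial-mesenchymal transition list, 3 of the 3 called genes with a promoter entry held it (Epcam, Cldn7 and Itgb6), and 7 of 14 of all its genes with an entry. A match describes the letters and is not a binding site shown here.

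Among antigen presentation genes, H2-Eb1, a beta chain of MHC class II, was at -8.9 to -7.23 in P5 and at -3.98, -3.93, -2.73 and -3.46 in P6, at least 5.8-fold higher (adjusted p = 2.99e-08). Its partners did not move alike. Cd74, the invariant chain, was at -2.02 to -0.85 in P5 and -2.05 to -1.72 in P6 (change -0.58, SE 0.24, adjusted p = 0.084). H2-Aa and the transactivator Ciita were below background on all 10 arrays. Of the 5 tested class II genes 2 passed, both higher (40%, against 11.1% of all genes), or 1 with the floor. Pigz, a mannosyltransferase of the GPI anchor pathway, was at -7.26 to -6.38 in P5 and at -3.36, -3.36, -2.66 and -2.5 in P6, at least 8.54-fold higher (adjusted p = 1.29e-06). Pigz was the 1 called gene among 20 tested genes of the study's T-LM signature (5%, against 11.1% of all genes higher). The signature was not tested whole here and was chosen on these samples, so that it is not independent evidence. Without P5 replicate 1, 7 of the 20 passed.

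Part of the myeloid genes passed, and several of these were low in P5 replicates 2 to 6 and high in P5 replicate 1 and all P6 samples. As background, Tyrobp, Fcer1g and Ptprc are shared by many leukocytes. Of 26 tested macrophage markers 8 were higher at P6 (30.8%, against 11.1% of all genes) and 0 lower, with a median of 1.22. Without P5 replicate 1, 17 of the 26 were higher, and with slide as a fixed block 4 were. Without P6 replicate 1 or 2 the count was 3, and without P6 replicate 3 it was 4. The summed level was 3.3 to 7.83 (median 4.35) in P5 and 4.56 to 6.11 in P6, so the groups overlapped, also without P5 replicate 1 (next P5 value 4.97). Each P6 array had 16 to 24 of the 30 markers above background, P5 replicate 1 had 18 and the other P5 arrays 8 to 11. Cd163, C1qb, C1qc, Marco and Siglecf were below background on all 10 arrays. T-LM P4 was at 5.77 to 8.94. The part of carried-over myeloid cells in these values was not tested.

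Tyrobp, the signalling adaptor of myeloid receptors, was at -7.72 to -6.3 in P5 replicates 2 to 6, at -1.42 in P5 replicate 1, and at -2.06, -1.56, -2.9 and -3.33 in P6. The change was 3.88 (SE 0.88, adjusted p = 0.0037) with all samples, 3.4 with the floor, since only 1 P5 sample was above background, and 4.86 (adjusted p = 8.63e-08) without P5 replicate 1. With slide as a fixed block it did not pass (adjusted p = 0.0162). The same-slide difference was -0.64 for Tyrobp between the samples numbered 1, and 6.15, 4.64 and 2.97 between those numbered 2 to 4. Ctss, cathepsin S of the antigen processing pathway, followed the same order, at -6.18 to -5.02 in P5 replicates 2 to 6, 0.06 in replicate 1, and -0.6, -0.69, -1.18 and -1.55 in P6 (change 3.57, SE 0.81, adjusted p = 0.00376, and 0.0134 with slide as a fixed block). Arg1, the arginase of alternatively activated macrophages, was at -8.81 to -4.13 in P5 and at -2.45, -3.91, -2.91 and -3.68 in P6 (change 4.21, SE 0.64, adjusted p = 0.000175). Arg1 was above background in 1 of 6 P5 samples, and the change was 3.17 with values floored at the detection limit. Not every macrophage gene followed. Csf1r, the receptor for the macrophage growth factor, was above background on all arrays and changed by 0.02 (SE 0.65, adjusted p = 0.984), and the lysosomal protein Cd68 by -0.55 (SE 0.22, adjusted p = 0.0693).

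**Figure D3:**
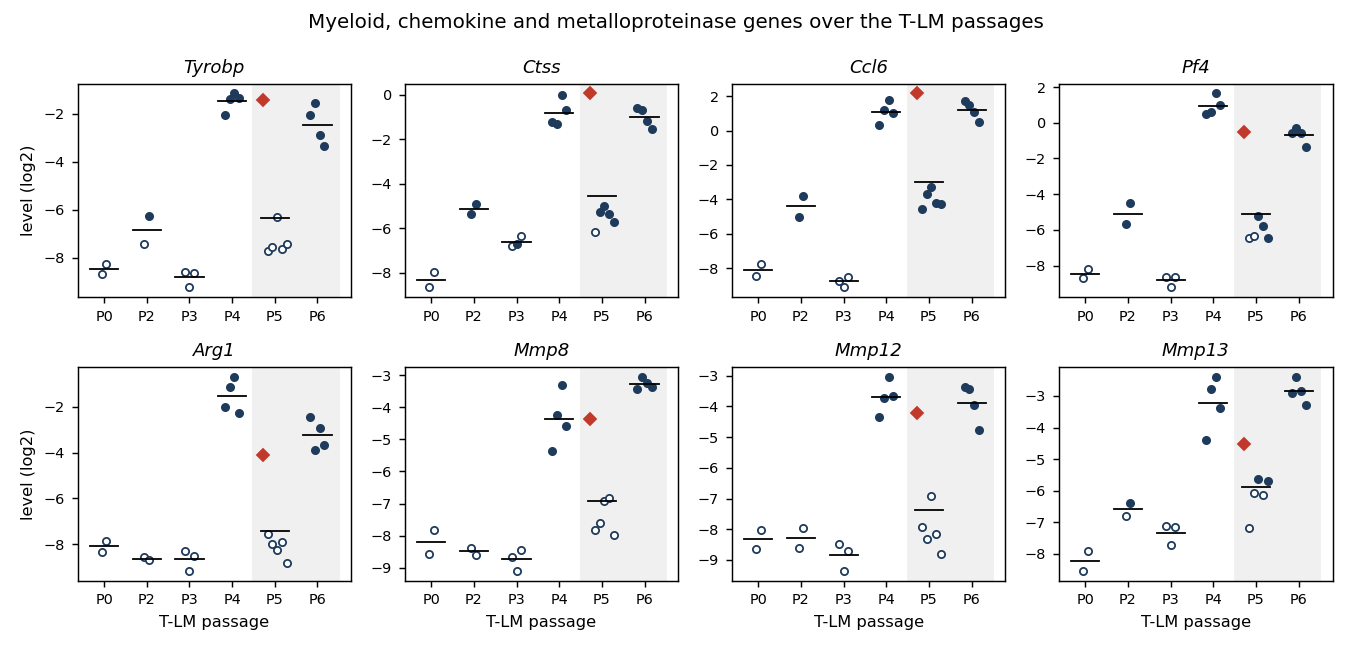
Level (y axis, log2) of 8 myeloid, chemokine and metalloproteinase genes in each sample of P0 and T-LM P2 to P6 (x axis). Symbols are samples, open where not well above background, black lines are group means, the grey band marks P5 and P6, and the red diamond, P5 replicate 1, lies near P6 in the Tyrobp, Ctss, Ccl6 and Pf4 panels, for instance at -1.42 for Tyrobp.

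Secreted factors moved in the same samples. Of 21 tested chemokines 7 were higher (33.3%, against 11.1% of all genes) and 0 lower, with a median of 1.2. The count was 10 without P5 replicate 1, 3 with slide as a fixed block and 4 without P6 replicate 1 or 2. Cxcl14, a chemokine of epithelia and stroma, was at -6.34 to -1.31 (median -5.75) in P5 and at 0.85, 1.05, -0.74 and -0.75 in P6 (change 5.05, SE 0.88, adjusted p = 0.000587). The highest P5 value of Cxcl14, -1.31, was that of replicate 1. Ccl6, a macrophage chemokine, was at -4.58 to -3.27 in P5 replicates 2 to 6 and at 2.16 in replicate 1, above every P6 value of 1.73, 1.49, 1.05 and 0.49 (change 4.16, SE 0.91, adjusted p = 0.00284, and 0.0119 with slide as a fixed block). Pf4, platelet factor 4, changed by 4.43 (SE 0.82, adjusted p = 0.000859). Ccl2, the main monocyte attractant, was at 0.49 to 3.06 in P5 and 1.18 to 2.06 in P6 and did not pass (adjusted p = 0.678). Of 15 tested inflammatory cytokines and growth factors 5 were higher (33.3%, against 11.1% of all genes) and 0 lower. The count was 9 without P5 replicate 1 and 2 with slide as a fixed block. Without P5 replicate 3 or P6 replicate 1 the count was 3, without P6 replicate 2 it was 2 and without P6 replicate 3 it was 1. Il11, a cytokine of the IL-6 family, was at -5.61 to -2.09 in P5 and at -1.62, -1.26, -1.14 and -2.06 in P6 (change 3.22, SE 0.59, adjusted p = 0.000866). Il1b, secreted by activated macrophages, passed with P5 replicate 1 at -3.6, above all P6 samples (change 3.28, SE 0.76, adjusted p = 0.0041, and 0.0135 with slide as a fixed block). Il1b was above background in 1 P5 sample, and with the floor the change was 2.11 (adjusted p = 0.0138).

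Metalloproteinases degrade matrix and cleave surface proteins. Of 14 tested genes of this family and its inhibitors, 5 were higher (35.7%, against 11.1% of all genes) and 0 lower, with a median of 1.52. The 5 were Mmp8, Mmp9, Mmp10, Mmp12 and Mmp13. Without P5 replicate 1 the count was 8, and 4 with slide as a fixed block. Mmp13, a collagenase, was at -7.19 to -4.53 (median -5.88) in P5 and at -2.89, -2.4, -2.83 and -3.28 in P6, with no overlap (change 3.02, SE 0.4, adjusted p = 5.86e-05). Mmp8, the other collagenase, was at -7.97 to -4.36 in P5 and at -3.42, -3.06, -3.26 and -3.36 in P6 (change 3.64, SE 0.52, adjusted p = 0.000106, or 3.17 with the floor). Mmp12, the macrophage elastase, was at -8.8 to -4.2 in P5 and at -3.38, -3.44, -3.94 and -4.75 in P6, where replicate 4 lay below P5 replicate 1 (change 3.51, SE 0.63, adjusted p = 0.000673, or 2.55 with the floor). Mmp8 and Mmp12 were above background in 1 of 6 P5 samples each. Mmp10, a stromelysin, was above background in all 10 samples, at -2.75 to -1.5 in P5 and at -0.5, -0.08, -0.37 and -0.27 in P6, and P5 replicate 1, at -2.2, did not stand apart there (change 1.79, SE 0.28, adjusted p = 0.000247). Mmp2 and the inhibitor Timp1 changed by -0.58 and -0.09 (adjusted p = 0.179 and 0.882).

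The promoters of Mmp10 and Mmp13 are shown because metalloproteinase genes are classical targets of AP-1, the Fos-Jun dimer, some subunits of which were lower at P6. They are from RefSeq in GRCm38.p6, from 250 bases before to 50 after the start, 5′ to 3′, with the AP-1 letters TGANTCA in capitals. These letters lie 63 bases before the start of Mmp10 (chr9:7502092-7502391, plus strand) and 35 before that of Mmp13 (chr9:7272264-7272563, plus strand).
Mmp10: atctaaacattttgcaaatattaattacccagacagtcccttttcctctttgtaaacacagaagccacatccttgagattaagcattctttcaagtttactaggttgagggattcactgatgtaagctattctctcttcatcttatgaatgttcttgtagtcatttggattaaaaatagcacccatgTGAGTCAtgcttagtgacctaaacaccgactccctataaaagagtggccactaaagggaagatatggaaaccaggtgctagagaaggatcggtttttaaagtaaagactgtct
Mmp13: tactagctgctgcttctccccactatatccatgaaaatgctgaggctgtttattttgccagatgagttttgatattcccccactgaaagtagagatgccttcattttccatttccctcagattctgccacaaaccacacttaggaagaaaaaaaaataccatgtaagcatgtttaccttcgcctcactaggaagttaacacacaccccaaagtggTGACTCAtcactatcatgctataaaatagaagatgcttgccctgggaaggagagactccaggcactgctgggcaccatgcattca
Of all 32851 promoters 7.81% hold TGANTCA, and 8.97% of their 27025 genes have such a promoter. It was found for 3 of 4 called metalloproteinases with a promoter entry (Mmp10, Mmp12 and Mmp13, not Mmp8) and for 6 of 16 genes of the list with an entry.

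Few matrix genes passed with all samples. Of 25 interstitial collagens and matrix glycoproteins 0 passed in limma, with a median of 0.08, and 7 were higher and 1 lower without P5 replicate 1. Col1a2, a chain of collagen I, was at 4.62 in P5 replicate 1, above the 4 P6 values of 0.81, 1.62, 0.15 and -0.38, and the P5 median was 0.11 (change -0.27, SE 0.97, adjusted p = 0.866). Of 13 tested fibroblast markers 0 were higher and 1 was lower (7.69%, against 3.14% of all genes). This was Fbln1, a matrix-associated fibulin (change -0.85, SE 0.21, adjusted p = 0.00617, and 0.0305 with slide as a fixed block). Without P5 replicate 1, 4 fibroblast markers were higher. Of 18 tested basement membrane genes 2 were higher (11.1%, the same share as of all genes), Col4a3 and Col4a4, and 5 without P5 replicate 1. Col4a3 was below background in all P5 samples and did not pass with the floor (change 0.24, adjusted p = 0.3). The part of stromal cells in these values was not tested.

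Among genes that fell, Nos2, the inducible nitric oxide synthase, had the largest change. It was at -0.66 to 2.62 (median 1.72) in P5 and at -1.74, -2.56, -0.99 and -1.6 in P6, with P5 replicate 1 the lowest of P5 and still above all of P6 (change -3.14, SE 0.5, adjusted p = 0.000268). Ccr7, the receptor that guides cells to lymph nodes, was tightly grouped at -1.34 to -0.69 in P5 and was at -3.22, -3.92, -2.89 and -3.1 in P6 (change -2.37, SE 0.27, adjusted p = 1.17e-05). Tram2, which takes part in collagen folding, fell by 2.53 (SE 0.47, adjusted p = 0.000853, and 0.0179 with slide as a fixed block), and Dpep1, a kidney dipeptidase, by 2.49 (SE 0.38, adjusted p = 0.000183). Dhx58, an RNA sensor of the RIG-I family, fell by 2.27 (SE 0.43, adjusted p = 0.0011, and 0.0195 with slide as a fixed block). Cdkn1a, the p21 inhibitor of the cell cycle, was at -0.01 to 0.65 in P5 and at -1.67, -1.55, -1.67 and -1.95 in P6 (change -2.08, SE 0.2, adjusted p = 3.6e-06), while Mki67 and Top2a, markers of proliferating cells, changed by 0.95 and -0.07 (adjusted p = 0.0527 and 0.827).

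**Figure D4:**
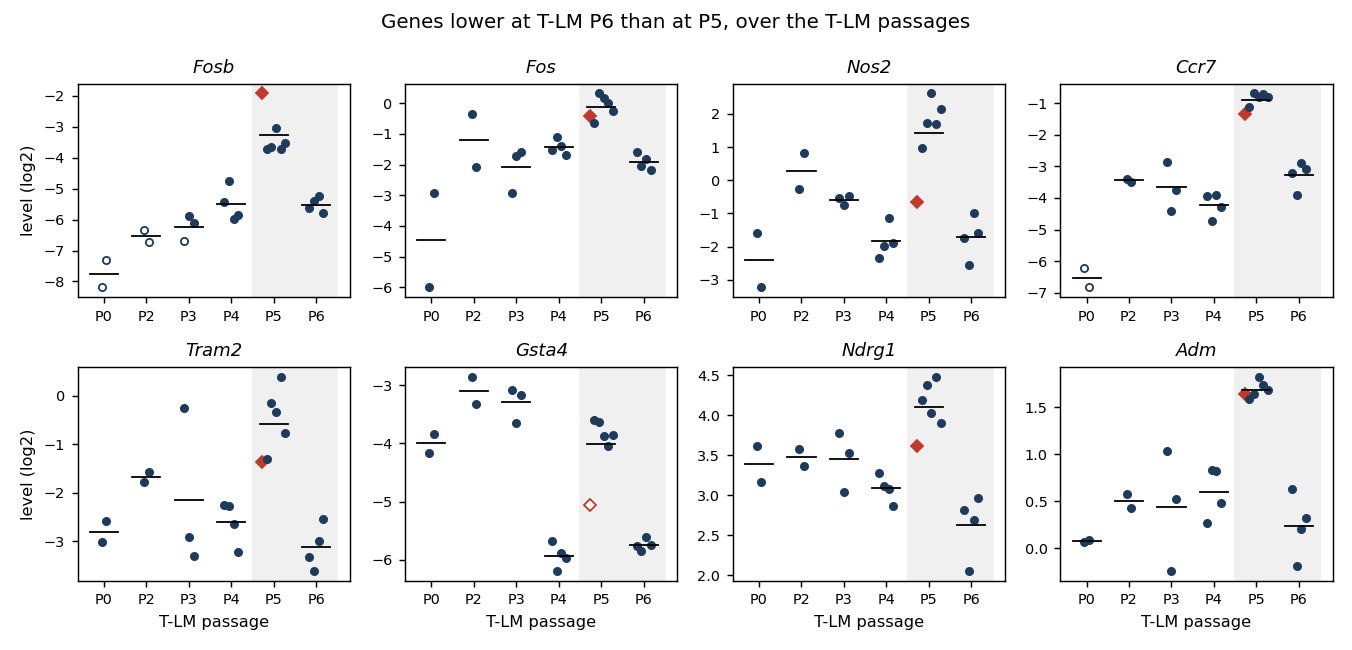
Level (y axis, log2) of 8 genes lower at T-LM P6 than at P5 in each sample of P0 and T-LM P2 to P6 (x axis). Symbols, lines and band are samples, group means and the P5 and P6 groups, with P5 replicate 1 as a red diamond and open symbols not well above background. P5 is the highest group for Fosb, Fos, Nos2, Ccr7, Tram2, Ndrg1 and Adm, with Nos2 reaching 2.62, and Gsta4 is at its P4 level again in P6.

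Of 22 tested immediate-early genes 10 were lower (45.5%, against 3.14% of all genes) and 0 higher, with a median of -0.58. With slide as a fixed block 4 were lower, and without P5 replicate 1 there were 9. Without P5 replicate 4, or without P6 replicate 1, 2 or 4, there were 5. The 10 were the AP-1 subunits Fos, Fosb, Fosl1, Jun and Jund, the phosphatases Dusp1 and Dusp4, and Ier3, Klf2 and Klf4. Fosb was at -3.73 to -1.92 (median -3.6) in P5 and at -5.61, -5.41, -5.25 and -5.79 in P6 (change -2.25, SE 0.33, adjusted p = 0.000123). Fos was at -0.65 to 0.32 in P5 and at -1.59, -2.05, -1.82 and -2.19 in P6 (change -1.78, SE 0.44, adjusted p = 0.00699, and 0.0112 with slide as a fixed block). Jun was at 0.64 to 1.77 in P5 and at -0.1, -0.47, -0.09 and -0.22 in P6 (change -1.2, SE 0.2, adjusted p = 0.000451). Dusp4 fell by 1.98 (SE 0.29, adjusted p = 0.000141). The other AP-1 subunits did not pass, with changes of 0.48 for Fosl2 and 0.77 for Junb, nor did Egr1 at -0.41 or Myc at 0.03. These AP-1 subunits were lower, and the 5 metalloproteinases higher, in the same P6 samples.

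The promoter of Dusp1, chosen after its values were seen, is the 1 among the 8 called immediate-early genes with a promoter entry that holds TGACGTCA, the cAMP response element. It is from RefSeq in GRCm38.p6 (chr17:26508423-26508722, minus strand), 5′ to 3′, with the element in capitals 143 bases before the start.
Dusp1: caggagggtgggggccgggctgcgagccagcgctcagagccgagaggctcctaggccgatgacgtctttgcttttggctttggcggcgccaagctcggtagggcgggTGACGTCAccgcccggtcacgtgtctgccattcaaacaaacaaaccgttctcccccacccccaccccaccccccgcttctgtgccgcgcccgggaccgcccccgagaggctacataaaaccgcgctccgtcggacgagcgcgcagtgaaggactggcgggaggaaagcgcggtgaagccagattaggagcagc
Of all 32851 promoters 1.79% hold TGACGTCA, and 2.03% of their 27025 genes have such a promoter. In the list 2 of 19 genes with an entry did (Dusp1 and Btg2). Dusp1 was at -0.49 to 0.56 in P5 and at -1.64, -1.36, -1.58 and -1.81 in P6 (change -1.5, SE 0.23, adjusted p = 0.000195). None of the 8 held the AP-1 letters TGANTCA in this window.

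Of 31 hypoxia and glycolysis genes 6 were lower at P6 (19.4%, against 3.14% of all genes) and 0 higher, with a median of -0.51, and 5 of the 31 fitted changes were above 0. The count was 12 with the 75th percentile over all probes, 4 with quantile normalization and 3 with slide as a fixed block. Ndrg1, induced by hypoxia, was at 3.62 to 4.48 (median 4.11) in P5 and at 2.81, 2.05, 2.69 and 2.97 in P6 (change -1.47, SE 0.21, adjusted p = 8.76e-05). Adm, which encodes the vasodilator adrenomedullin, was within 1.59 to 1.82 in P5 and at 0.63, -0.19, 0.21 and 0.32 in P6 (change -1.44, SE 0.2, adjusted p = 8.83e-05). Slc2a1, the glucose transporter Glut1, fell by 1.12 (SE 0.19, adjusted p = 0.000495), and Gpi1, Aldoa and Epas1 (HIF-2 alpha) by 0.7, 0.71 and 0.56. Vegfa and Car9, other hypoxia-inducible genes, changed by -0.23 and 0.39 (adjusted p = 0.61 and 0.339), and Vhl by -0.2 (adjusted p = 0.472). The 78 ribosomal protein genes, with 0 calls, had a median of -0.35 that turned to 0.06 with quantile normalization.

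Of 25 tested efflux and detoxification genes 3 were higher (12%, against 11.1% of all genes) and 7 lower (28%, against 3.14%). The 3 higher genes were ABC transporters that expel drugs or lipids. Abcb1a, a P-glycoprotein, was at -5.82 to -5.15 in P5 and at -3.47, -2.78, -2.79 and -2.96 in P6 (change 2.37, SE 0.2, adjusted p = 5.83e-07), Abcb4, the phospholipid exporter, changed by 1.74 (SE 0.26, adjusted p = 0.000167) and Abcb1b by 1.38 (SE 0.26, adjusted p = 0.00114). These near-identical genes may share signal on a probe. The 7 that fell were glutathione transferases (Gsta2, Gsta4, Gstm1, Gstm2), Nqo1, Hmox1 and Maoa. Gsta4 was at -5.05 in P5 replicate 1 and at -4.04 to -3.59 in the others, and at -5.76, -5.84, -5.61 and -5.74 in P6 (change -1.73, SE 0.23, adjusted p = 5.86e-05). Hmox1, the heme oxygenase induced by oxidative stress, was at 2.08 to 2.41 in P5 and at 0.82, 0.53, 0.87 and 0.49 in P6 (change -1.6, SE 0.14, adjusted p = 1.3e-06).

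Few genes passed at the same step in the kidney. In KPT 136 of 12368 genes (1.1%) passed between P5 and P6 in the joint fit of both routes. The difference between the T-LM and KPT steps passed for 284 genes (2.3%), 226 (1.83%) more positive and 58 (0.469%) more negative in T-LM. KPT P5 replicates 1 and 2 were rich in myeloid genes: the summed macrophage level was 22.2 in the highest KPT P5 sample, against a median of 4.85 and 3.44 to 4.72 in KPT P6. The spread was wide for such genes, with an SD of 3.8 for Arg1 in KPT P5 against 0.31 in KPT P6. The KPT count was not refitted without these 2 samples, so it does not measure the size of the step beside the T-LM count. At the probe level 408 of 22247 differences passed (1.83%, 1.4% more positive and 0.436% more negative in T-LM), 262 with KPT P5 replicates 3 to 5 only and 930 without T-LM P5 replicate 1.

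**Figure D5:**
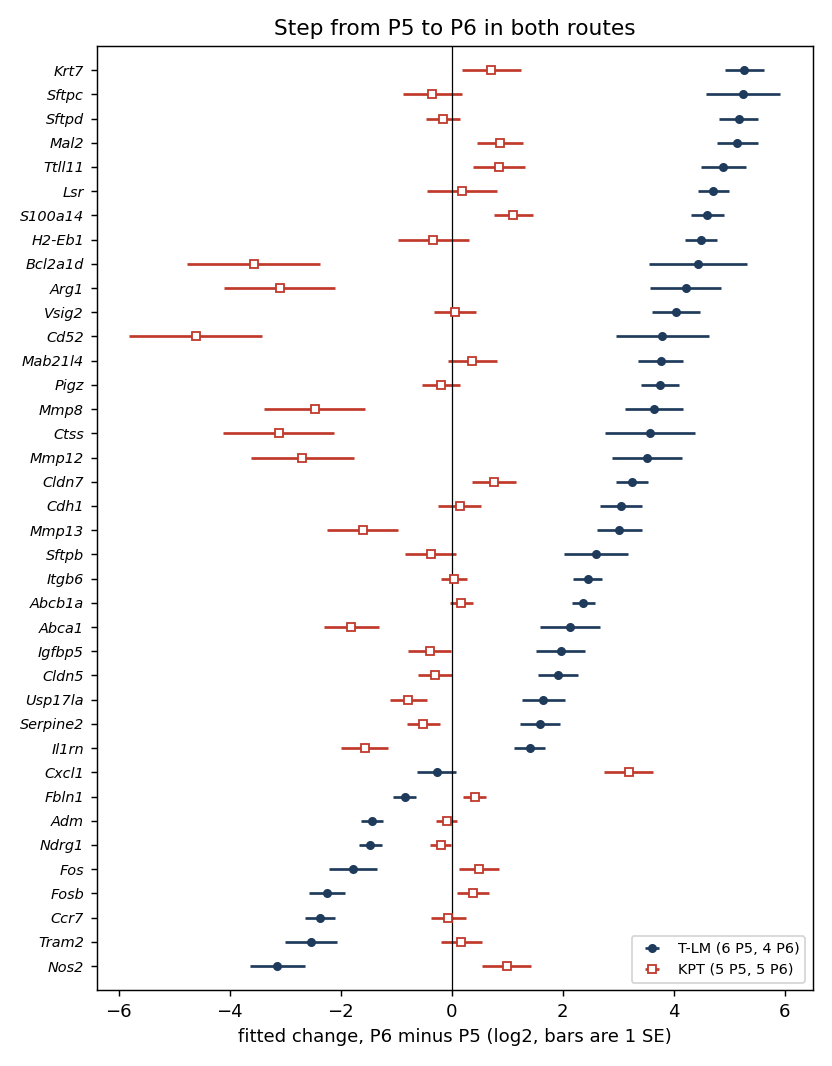
Fitted change from P5 to P6 (x axis, log2, bars 1 SE) in T-LM (filled, 6 P5 and 4 P6 samples) and KPT (open, 5 and 5 samples) for the 38 named genes tested in both whose steps differed (y axis), ordered by the T-LM change. Sftpc stood at 5.24 in T-LM while its KPT bar spans 0, and the KPT values of Cd52, Arg1 and Ctss lie below -3 with long bars.

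Among the differences that passed both with all samples and with KPT P5 replicates 3 to 5 only were Sftpc (5.59, SE 0.76, adjusted p = 3.18e-05, and 5.41 without KPT P5 replicates 1 and 2), Krt7 (4.55, SE 0.76, adjusted p = 0.000404, and 3.51) and Arg1 (7.3, SE 1.5, adjusted p = 0.00301, and 4.65). With slide as a fixed block Sftpc and Krt7 passed in limma (adjusted p = 3e-04 and 0.00168), but Arg1 did not (0.011). The KPT change of Arg1 was -3.1 (SE 1, adjusted p = 0.0817). Sftpc was below background in all 10 KPT samples. The steps of Nos2 differed by -4.12 (SE 0.62, adjusted p = 0.000121), with KPT at -4.02 to -2.75 in P5 and -2.63 to -1.67 in P6. Fosb differed by -2.62 (SE 0.42, adjusted p = 0.00024). Cxcl1, a neutrophil chemokine, differed by -3.47 (SE 0.63, adjusted p = 0.00102), since it was -6.35 to -4.5 in KPT P5 and -3.1 to -1.01 in KPT P6 but changed by -0.27 in T-LM (adjusted p = 0.606). The differences of Cd52 (8.4), Bcl2a1d (8), Ctss (6.69) and Mmp12 (6.2), all leukocyte-expressed genes, did not pass with KPT P5 replicates 3 to 5 only (adjusted p = 0.0171, 0.0278, 0.0317 and 0.0218). Cd52 was at -0.33 and 0.41 in KPT P5 replicates 1 and 2, against -6.2 to -4.85 in the other KPT P5 samples. The steps of both routes share no P5 or P6 sample.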

How the data were processed

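Gene expression of 70 samples was measured on 1-colour Agilent mouse arrays with Cy5. Per the file headers, the deposited intensity values are the scanner software's processed signals (Feature Extraction 11.0.1.1, and 12.0.2.2 for the last slide), background-subtracted and not normalized between arrays. The deposited series values are log2 values that the authors quantile-normalized from the raw median signal, as a comparison of both showed, and served as an alternative. The array number limits the precision.

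Control spots (3671 of 62976) and outlier spots were left out. Log2 processed signal was scaled to each array's 75th percentile over 12216 probes well above background on all 70 arrays. Of 55681 probes, 28026 matched 21154 symbols of the RefSeq table (GRCm38.p6). The brightest probe stood for a symbol. P0 and T-LM P2 to P6 (21 arrays) were fitted in limma 3.58.1 (R 4.3.3), testing probes well above background on at least 2 arrays, with Benjamini-Hochberg adjusted p of 0.01. The KPT step and the route difference came from a joint fit of T-LM and KPT. The fit, tested on simulated data, recovered 48.5%, 89.6% and 91% of 1, 2 and 3 log2 unit changes among 21384 probes of the T-LM comparison. The simulated noise was normal and independent between probes, without slide or composition effects, so these shares do not cover such effects.

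Named genes were the 15 largest rises and 10 largest falls among called, non-overlapping genes, up to 3 called members of each of 36 lists, and the 3 largest route differences each way. Non-overlap of these rises and falls is thus part of how they were chosen. Not every gene the rule picked is reported here. The members and lists were chosen with earlier results of these data known. Alternatives were other scalings, background correction, filters, a floor, the index, slide or replicate as a block, array weights, other sample sets and leaving out each sample. Because no mean signal was in the files read, the normexp alternative used the median signal. The array's genome build is not given in the sources used here, so coordinates are those of the RefSeq promoters only.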

Additional observations from a re-analysis of the deposited data

Results flagged for a closer look

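In 254 groups of 4 to 6 samples checked for a sample far from the others, 38 had one. The cut-off flags about 1 in 20 groups of independent, normally distributed values. These groups share the same arrays, so the 38 cannot be set against that rate. Of the 38, 33 were at P5, and P5 replicate 1 was the distant sample in 31. Its levels were highest for Ttll11 (-6.16), S100a14 (-7.37), Arg1 (-4.13), Mmp8 (-4.36), C430002N11Rik (-3.03), Nxph3 (-2.77), Tyrobp (-1.42), Ctss (0.06), Fcer1g (-0.92), Pf4 (-0.52), Ccl6 (2.16), Il1b (-3.6), Il11 (-2.09), Serping1 (-2.29), Aldh1a1 (-3.83), Itga6 (-4.92), Cd52 (-1.89) and Bcl2a1d (-1.82). They were lowest for Ly6a (-0.37) and Gsta4 (-5.05). Ttll11 and S100a14 were below background in all 6 P5 samples, so for both the order is that of background values.

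The summed level of gene lists was also highest in P5 replicate 1, with the next P5 value in brackets. It was 7.83 for macrophage markers (4.97), 44 for fibroblast markers (3.58), 118 for interstitial collagens (23.6), 4.67 for basement membrane genes (2.59) and 23.3 for metalloproteinases (7.52). It was 21.8 for chemokines (5.77), 5.2 for inflammatory cytokines (2.75), 202 for actin-binding genes (105) and 5.2 for the T-LM signature (1.51). Cell cycle genes (27.7, next 37.6) and detoxification genes (16.6, next 21.6) were lowest there. Myeloid, fibroblast and collagen genes were thus high, and cell cycle genes low, in the same array.

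Other distant samples were P5 replicate 4 for Cldn7 (lowest, -7.93) and P5 replicate 2 for Hbegf (lowest, -2.14). In P6 they were replicate 1 for Esam (lowest, -4.11) and Cxcl1 (lowest, -1.82), replicate 2 for Slc2a1 (lowest, 0.91), replicate 3 for Dusp4 (highest, -1.99) and replicate 4 for the summed level of the insulin-like growth factor axis (lowest, 3.92, next 4.13).

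The change from P5 to P6 differed between T-LM and KPT for 39 of the 90 named genes (limma, adjusted p of 0.01). More positive in T-LM, in log2 units, were the leukocyte, antigen presentation and metalloproteinase genes Cd52 (8.4), Bcl2a1d (8), Arg1 (7.3), Ctss (6.69), Mmp12 (6.2), Mmp8 (6.1), H2-Eb1 (4.81), Mmp13 (4.63) and Il1rn (2.98). Surfactant and other epithelial genes followed with Sftpc (5.59), Sftpd (5.34), Krt7 (4.55), Lsr (4.53), Mal2 (4.27), S100a14 (3.49), Sftpb (2.98), Cdh1 (2.9), Cldn7 (2.48) and Itgb6 (2.4). The others were Ttll11 (4.05), Vsig2 (3.97), Abca1 (3.94), Pigz (3.94), Mab21l4 (3.39), Usp17la (2.43), Igfbp5 (2.36), Cldn5 (2.22), Abcb1a (2.2) and Serpine2 (2.09).

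More negative in T-LM were Fbln1 (-1.25), Ndrg1 (-1.27), Adm (-1.36), Fos (-2.27), Ccr7 (-2.31), Fosb (-2.62), Tram2 (-2.7), 4631405J19Rik (-2.98), Cxcl1 (-3.47) and Nos2 (-4.12). With KPT P5 replicates 3 to 5 only, the difference no longer passed for Mmp8 (adjusted p = 0.0107), Mmp13 (0.0141), H2-Eb1 (0.0122), Il1rn (0.0103), Lsr (0.0116), Sftpb (0.0214), Cdh1 (0.0139), Cldn7 (0.0465), Usp17la (0.0157), Igfbp5 (0.0301), Cldn5 (0.0132) and Serpine2 (0.0161). It was also lost for Fbln1 (0.0319), Ndrg1 (0.0129), Adm (0.0152), Fos (0.022) and 4631405J19Rik (0.0284), beside the 4 leukocyte genes named in the report. Some of these differences hardly moved in size, with Ndrg1 at -1.26, Adm at -1.28, Fos at -2.21, Fbln1 at -1.13, Sftpb at 2.87 and Cldn5 at 2.05 in these fewer samples.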

How the results depend on the processing

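The 2853 called probes became 1815 with normexp background correction, 1656 with only probes above background on every array, 1113 with slide as a fixed block, 6412 with array weights and 1444 with replicates 1 to 4 only, unblocked, an alternative chosen after seeing the data. Leaving out each sample gave 1600 (P6 replicate 3) to 3613 (P5 replicate 1), with 1786, 1660 and 1859 without P6 replicates 1, 2 and 4. Of the calls 76.3% were higher at P6, a share that was 38.8% when all probes set the 75th percentile, 63.6% with quantile normalization, 55.7% with normexp, 66.4% with the deposited series values and 57.4% with the index as a covariate.

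The 408 route differences became 223 with normexp, 225 with no filter, 122 with probes above background on every array, 240 with slide as a fixed block, 2137 with array weights and 262 with KPT P5 replicates 3 to 5 only (chosen after seeing the data). Leaving out each T-LM sample gave 207 (P6 replicate 3) to 930 (P5 replicate 1), with 260 without P5 replicate 3 and 232, 234 and 268 without P6 replicates 1, 2 and 4. The split was 217 more positive and 229 more negative when all probes set the 75th percentile. The index difference of 0.84 was 0.28 with quantile normalization (exact permutation p = 0.0857) and 0.2 with the deposited series values (exact permutation p = 0.138), and 0.72 to 0.98 without each sample.

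With a replicate block over the numbers 1 to 4, 18 probes passed in limma (6867 at an unadjusted p of 0.05), and the index difference was 1 (exact permutation p = 0.125, the smallest its 16 assignments allow). The correlations of same-numbered samples' deviations were 0.19, -0.36, 0.5 and -0.23. Not every sample correlated best with its own number, so the numbers were not taken to pair the sub-lines. Numbers 1 to 4 are also the 4 shared slides, so this block takes out slide differences whether or not the sub-lines are paired. With the block 9 of 87 named genes stayed on the same side of the threshold, with slide as a fixed block 52 of 89, with the scaling over all probes 82 of 89 and without P5 replicate 1 85 of 89. Among the 9 was Cxcl1, which was not called in the main fit. No called named gene changed its direction in the settings run, but the ribosomal protein median of -0.35 turned to 0.06 with quantile normalization and 0.05 with the deposited series values. The causes of these shifts were not tested. Signal over background limits the low genes: a change printed for a gene below background in most P5 samples rests partly on background values.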

Other observations

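Gene groups outside the comparisons above moved in small numbers, and each is given beside 11.1% of all tested genes higher and 3.14% lower at P6. Of 25 interferon-stimulated genes 4 were higher (16%) and 0 lower, namely Ifit2, Irf1, Oasl1 and Zbp1. Zbp1, a sensor of Z-form nucleic acid, changed by 1.36 (SE 0.29, adjusted p = 0.00222, limma), and Irf1 by 0.66 (SE 0.16). Nlrc5, the transactivator of MHC class I genes, was the 1 of 13 class I genes that passed (change 1.55, SE 0.27). Of the acute phase genes, the protease inhibitor Serpina3n, below background in all 4 P6 samples, was at least 1.54-fold lower (adjusted p = 0.00153, but 0.0247 with values floored at the detection limit), and Serping1, the C1 inhibitor, changed by 1.91 (SE 0.5).

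Among 8 tested stem-like markers, Aldh1a1, a retinaldehyde dehydrogenase, changed by 3.18 (SE 0.6, 2.84 with the floor). The laminin receptor chain Itga6 changed by 2.07 (SE 0.43, 1.58 with the floor). Each had 1 P5 sample above background, while Ly6a (Sca-1) changed by -1.5 (SE 0.3). P5 replicate 1 was the outlying sample for each of the 3. Of the insulin-like growth factor axis, Igfbp5 was at least 1.52-fold higher (adjusted p = 0.00345, but 0.0104 with the floor) and Igfbp6 changed by -0.64 (SE 0.16). Hbegf, a ligand of the EGF receptor, changed by -0.93 (SE 0.17).

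Of 26 ER stress genes the disulfide isomerases Pdia4 and Pdia6 were lower, by changes of -1.49 (SE 0.34) and -0.64 (SE 0.16), and 0 were higher. Of 33 cell cycle genes Ccnd3 and Cdkn1a were lower. Ccnb1 was higher at 0.92 (SE 0.24, adjusted p = 0.00977), a call lost with slide as a fixed block (0.0473), with the index as a covariate (0.0656) and without any P6 sample in turn, and its 2 other probes were not called. Of 30 respiratory chain genes 0 passed in limma, with a median of -0.16. Among markers of other cell types, the endothelial gene Esam changed by -1.25 and the lymphocyte gene Cd3e by -1.3. Cldn5 and Cd79b passed upward from below background in all P5 samples, with 2 of 4 P6 samples above it, and not with the floor (0.45 and 0.38, adjusted p = 0.157 and 0.0954). Of 5 neutrophil genes 0 passed in limma.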
